A study of Mus musculus with 2 samples.

Results

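The genes described here encode the proteasome, its activators and its assembly factors, measured in the pancreas of adult mice as RNA on 2 expression arrays. Members were chosen by gene symbol: every probe set whose single symbol in the platform annotation is Psm, 1 letter from a to g and a number. This gave 100 of the 45101 probe sets on the array, which read 47 genes, and 43 of these genes had a probe set past the level filter, out of 11848 genes in all. The family itself was selected with values of the same 2 arrays already known. All values below are therefore a description of these arrays, and none is a test of the family.

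The mice were male offspring of C57BL/6J females, an inbred strain, and differed in what the mothers ate while pregnant. The control group came from mothers on control diet, and the methionine-deficient group from mothers on a diet lacking enough methionine, which animals must eat and which donates methyl groups. From weaning at 3 weeks all offspring had control diet, and the pancreas was taken as RNA of mice aged 10 weeks. RNA was pooled within each group and each pool was measured once, so the comparison has n = 1 array per group, no spread between mice or arrays, and no p-value. The question was how the maternal diet shows in the pancreas of the adult offspring. How many mice made up a pool is not stated in the labels.

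The proteasome degrades proteins that carry chains of ubiquitin. Its 20S core is a barrel of stacked rings, with alpha subunits in the outer rings, which form the gate, and beta subunits in the inner rings, some of which cut peptide bonds. The 19S particle caps the barrel, and its base of ATPase subunits unfolds substrates while its non-ATPase subunits bind ubiquitin and remove it. Acinar cells, which make most of the RNA of the pancreas, secrete large amounts of protein, and misfolded secretory proteins are returned to the cytosol and degraded by the proteasome.

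Most proteasome transcripts had slightly lower intensities in the methionine-deficient pool, and none of the 43 genes past the filter differed by 1.5-fold. The median log2 difference (methionine-deficient minus control, on the log2(intensity + 1) scale) was -0.14, which is 1.10-fold lower, with the central range of genes from -0.23 to 0.01. Of the 43 genes, 32 were lower and 11 higher, while 50.0% of all genes past the filter were lower and their median lay at 0 to 2 decimals. The largest lower values were those of Psmb5, Psmd7, Psmb6 and Psme1, and the largest higher ones those of Psmd5 and Psmc2. These 4 and 2 genes were the ones past 0.32 on the log2 scale, a smaller size used as an alternative. Over all genes that passed the filter 19.5% were lower and 21.5% higher by that size, and 9.0% and 10.4% passed 1.5-fold in these directions.

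As error of a single gene, the scatter among probe sets that read 1 gene at a like level is given as a robust SD, called the probe-set spread. It covers probe noise within these 2 arrays only. It was 0.78, 0.61, 0.46, 0.30 and 0.18 on the log2 scale in 5 level bins from dimmest to brightest. The value of a gene is that of its brightest probe set, and 32 of the 43 genes lay in the brightest bin and 7 in the next. A difference beyond 1 probe-set spread was seen in 13 genes in the lower direction and in 2 in the higher, against 16.8% and 17.1% of all genes past the filter. Within the brightest bin 23 of 32 family genes were lower, where 55.3% of all genes in that bin were. In that bin 11 family genes were lower and 2 higher by more than the spread, with 20.8% and 15.0% of all genes there. Of the same 32 genes 3 were lower and 2 higher by at least 0.32, where the shares of all genes in the bin were 7.37% and 6.56%.

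**Figure D1:**
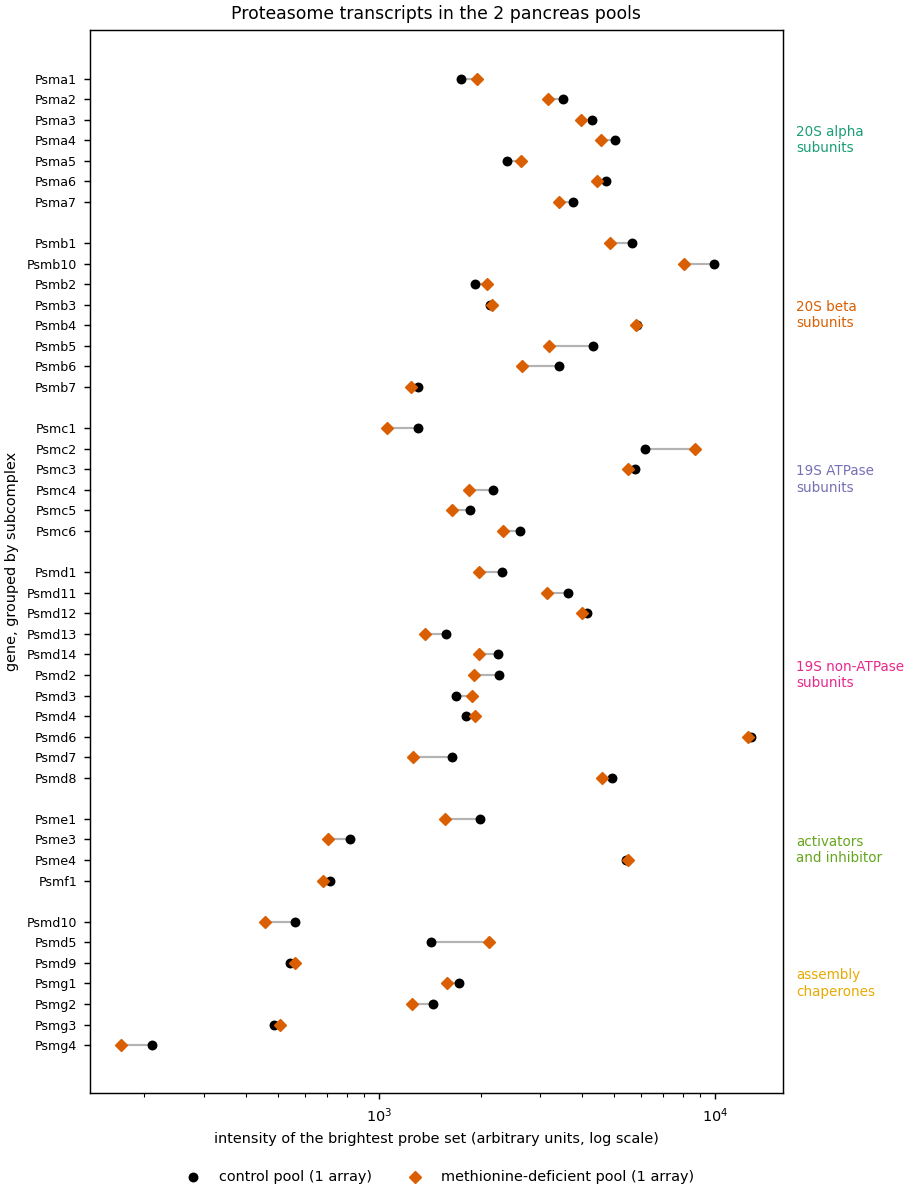
Intensity of the brightest probe set of each of the 43 proteasome genes past the filter (log axis, arbitrary units) in the control pool (black circles) and the methionine-deficient pool (orange diamonds), 1 array each, grouped by subcomplex. The diamond lies left of the circle for 32 genes, with Psmb5 and Psmd7 among the widest gaps, and right of it for 11, with Psmd5 and Psmc2 the widest; levels of different genes are not comparable because each probe set has its own response.

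The direction depended on which probe set read a gene. Of the 43 genes, 24 had 1 probe set past the filter, and 19 of these were lower with a median of -0.16. The other 19 genes had at least 2 probe sets. Their brightest probe sets were lower in 13 cases with a median of -0.09, but the 32 further probe sets of these genes were lower in 17 cases, with a median of -0.05, where 48.9% of such further probe sets of all genes were lower. Among the 10 further probe sets in the brightest bin, 8 were higher, and the median of the 10 was 0.13, where 53.2% of all genes' further probe sets in that bin were lower. All probe sets of a gene past the filter were lower for 5 genes, all higher for 4 and mixed for 10. Genes lower in all of these were Psma3, Psmb4, Psmc4, Psmc6 and Psmd13, and genes higher in all were Psma5, Psmc2, Psmd4 and Psmd9. The dim probe set of Psma3, at 428 in control and 67.0 in methionine-deficient RNA, exceeded the filter intensity of 150.3 in control only. That of Psma5, at 115 and 211, exceeded it in methionine-deficient RNA only. Such probe sets add no separate agreement. Counted over all 75 family probe sets past the filter, 49 were lower with a median of -0.12, where 49.6% of all named probe sets were lower. Over the 54 in the brightest 2 bins 37 were lower, where the share was 52.0%.

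**Figure D2:**
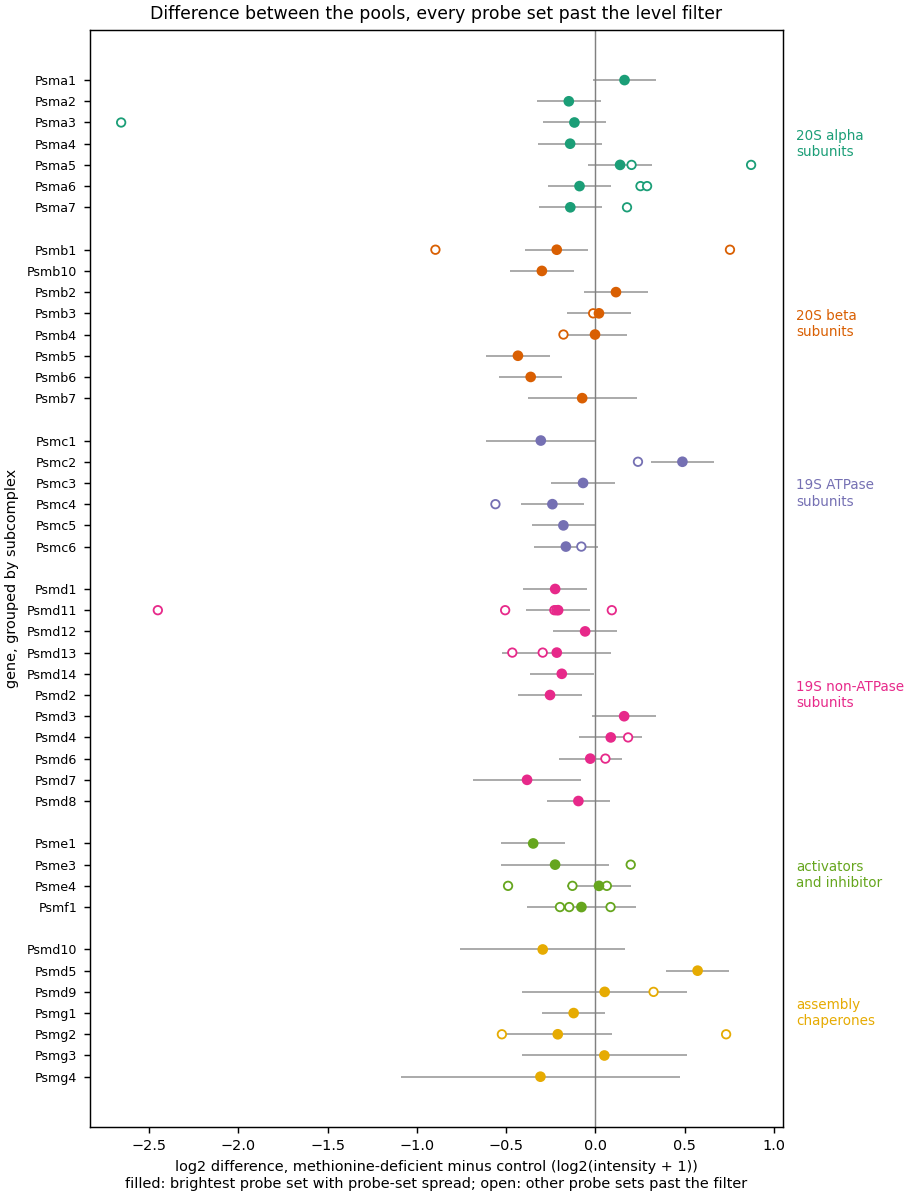
Log2 difference between the pools (methionine-deficient minus control) for every probe set past the filter, by gene and subcomplex; filled points are the brightest probe set of a gene with the probe-set spread as a bar, open points are its other probe sets. Filled points lie mostly between -0.43 and 0.16, and the widest open points, such as Psma3 at -2.66 and Psmd11 at -2.45, belong to dim probe sets.

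To show the sequence beside the values, the promoters of Psmb5 and Psmb6, catalytic subunits among the lowest values, and of Psmd5, the gene with the largest higher value, are given as RefSeq places them on GRCm38.p6, from 250 bases before to 50 after the annotated start. Capitals mark matches to 3 motifs on either strand: TGACNNNGC, a core of the antioxidant response element to which the proteasome regulators Nfe2l1 and Nfe2l2 bind, CCAAT, bound by NF-Y, and GGGCGG, the GC box bound by Sp1.
Psmb5, chr14:54617946-54618245, minus strand: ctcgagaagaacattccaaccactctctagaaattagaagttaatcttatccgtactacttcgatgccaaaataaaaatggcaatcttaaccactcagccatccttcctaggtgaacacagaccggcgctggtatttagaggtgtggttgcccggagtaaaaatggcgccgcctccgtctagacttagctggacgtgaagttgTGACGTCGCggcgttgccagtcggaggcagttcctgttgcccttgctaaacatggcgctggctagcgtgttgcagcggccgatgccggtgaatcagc
Psmb6, chr11:70525107-70525406, plus strand: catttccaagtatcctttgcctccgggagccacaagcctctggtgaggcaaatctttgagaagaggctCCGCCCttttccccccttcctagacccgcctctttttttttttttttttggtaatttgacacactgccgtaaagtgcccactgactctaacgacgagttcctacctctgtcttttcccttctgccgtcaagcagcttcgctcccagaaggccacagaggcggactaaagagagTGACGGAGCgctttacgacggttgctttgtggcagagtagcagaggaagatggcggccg
Psmd5, chr2:34870913-34871212, minus strand: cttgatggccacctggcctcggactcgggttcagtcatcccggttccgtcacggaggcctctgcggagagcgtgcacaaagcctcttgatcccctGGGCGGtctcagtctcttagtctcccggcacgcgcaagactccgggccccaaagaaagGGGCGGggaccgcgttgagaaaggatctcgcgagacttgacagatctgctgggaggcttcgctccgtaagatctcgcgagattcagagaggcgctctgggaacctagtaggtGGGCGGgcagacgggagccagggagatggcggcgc

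Psmb5 and Psmb6 each held 1 TGACNNNGC match, Psmb6 also 1 GGGCGG match on the opposite strand, and Psmd5 held 3 GGGCGG matches and none of the other motifs. RefSeq windows were matched for 39 of the 47 family genes, 41 windows in all. TGACNNNGC was in 14.6% of these windows and in 12.4% of all 32851 windows of that length, CCAAT in 34.1% and 37.4%, and GGGCGG in 53.7% and 35.7%. Among windows of genes past the level filter the shares were 14.1%, 36.8% and 59.6%. The 6 genes past the filter with a TGACNNNGC match had a median log2 difference of -0.11, and the 30 without one had -0.14. For GGGCGG the 21 genes with a match had a median of -0.17 and the 15 without one -0.09. For CCAAT these medians were -0.13 over 12 genes and -0.15 over 24. The median number of CG dinucleotides was 19 in family windows and 19 in windows of genes past the filter. DNA methylation was not measured here.

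The alpha subunits form the gated outer rings, and 5 of the 7 past the filter were lower, with a median of -0.12 and none beyond the probe-set spread of 0.18. Psma2 gave an intensity of 3510.1 in control against 3166 in methionine-deficient RNA (log2 difference -0.15), and Psma4 had 5027 and 4557 (-0.14). Psma1, at 1748 and 1958 (0.16), and Psma5, at 2393 and 2634 (0.14), went the other way. The second bright probe set of Psma5 was also higher, at 2225 and 2561 (0.20). For Psma7 and Psma6 the probe sets disagreed. Psma7 had 3774 and 3423 (-0.14) from its brightest probe set and 2205 and 2493 (0.18) from the other. Psma6 had 4708 and 4427 (-0.09) from its brightest and 3780 and 4504 (0.25) from the next. Psma3 had 4304 and 3968 (-0.12), and its dim second probe set 428 and 67.0. Over all 13 alpha probe sets past the filter 6 were lower and 7 higher, with a median of 0.14, so this subcomplex has no settled direction. Psma8, the alpha subunit of germ cells in the testis, lay below the filter at 107 and 143.

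Among beta subunits the catalytic ones were lower and the structural ones split. Psmb5, the chymotrypsin-like catalytic subunit, had 4309.9 in control against 3190.1 in methionine-deficient RNA (log2 difference -0.43, probe-set spread 0.18), the largest lower value of the family. Psmb6, the caspase-like subunit, had 3422 and 2661 (-0.36, probe-set spread 0.18), and Psmb7, the trypsin-like subunit, had 1307 and 1241 (-0.07, probe-set spread 0.30). Each of these 3 rested on a single probe set, and their median was -0.36. Of the 4 structural subunits 2 were lower and 2 higher, with a median of 0.01. Psmb1 had 5651 and 4863 (-0.22), while Psmb4 had 5827 and 5819 from its brightest probe set and 3899 and 3445 (-0.18) from the other. Psmb3 had 2134 and 2164 (0.02) and Psmb2 had 1925 and 2086 (0.12). Taken as 8 genes, the beta subunits had a median of -0.15, with 6 lower.

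Inducible subunits replace the constitutive catalytic ones in immune cells and under interferon, and the resulting immunoproteasome makes peptides for presentation on MHC class I. Psmb10, which replaces Psmb7, was the only one past the filter, with 9916 in control against 8056 in methionine-deficient RNA (log2 difference -0.30, probe-set spread 0.18). Psmb8, which replaces Psmb5, had 263 and 30.3 in one probe set and 37.2 and 41.4 in the other, and Psmb9, which replaces Psmb6, had 43.3 and 67.7. Both lay below the filter, where background can set the value, and are given no fold. Psmb11, the beta subunit of the thymus, had 19.8 and 27.8. Members nearest the filter were Psmg4, just inside it at 211 and 170.4, and Psma8, just outside.

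The ATPase subunits of the 19S base unfold the substrate and thread it into the core, and 5 of 6 were lower with a median of -0.17. Psmc1 had 1301 in control against 1052 in methionine-deficient RNA (log2 difference -0.31, probe-set spread 0.30). Psmc4 had 2179 and 1843 (-0.24, probe-set spread 0.18), and its second probe set was lower as well, at 1289 and 874 (-0.56). Psmc5 had 1863 and 1646 (-0.18), Psmc6 had 2621 and 2337 (-0.17), and Psmc3 had 5778 and 5508 (-0.07). Psmc2 stood apart, with 6191 and 8682 (0.49, probe-set spread 0.18), which is 1.40-fold higher. Its second bright probe set was also higher, at 2505 and 2956 (0.24), so 2 bright probe sets placed this subunit opposite to the other 5. The brightest of them is of a type that can bind several transcripts. Another probe set, dim and below the filter, had 135 and 3.89.

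Of the 11 non-ATPase subunits of the 19S particle 9 were lower, with a median of -0.19. In the base, the scaffold subunit Psmd1 had 2316 in control against 1981 in methionine-deficient RNA (log2 difference -0.23), and the other scaffold Psmd2 had 2275 and 1908 (-0.25), each beside a spread of 0.18. Psmd4, a ubiquitin receptor, was the exception, with 1814 and 1925 (0.09) and a second bright probe set at 1748 and 1985 (0.18). In the lid 7 of 8 genes were lower with a median of -0.14. Psmd7, the partner of the deubiquitinating enzyme, had 1639 and 1257 (-0.38, probe-set spread 0.30), the largest lower value of the lid. Psmd14, that enzyme, which cuts ubiquitin chains off the substrate, had 2261 and 1984 (-0.19, probe-set spread 0.18).

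Psmd11, a lid subunit that clamps the lid to the core, was read through 6 probe sets past the filter, of which 5 were lower. Its brightest had 3633 in control against 3143 in methionine-deficient RNA (log2 difference -0.21) and is of a type that can bind several transcripts, and the next had 1637 and 1745 (0.09). The dimmest of the 6, at 366 and 66.1, exceeded the filter intensity of 150.3 in control only. Psmd13 was lower in all 3 of its probe sets past the filter, with 1583 and 1363 (-0.22) in the brightest and -0.30 and -0.47 in the others, and had 47.7 and 92.8 in a dim one below it. Psmd12 had 4157 and 3995 (-0.06), Psmd8 had 4909 and 4596 (-0.10), and Psmd6 had 12766 and 12514 (-0.03). These 3 differences were within the spread of 0.18. Psmd3, also of the lid, was higher at 1691 and 1891 (0.16). Over all 20 non-ATPase probe sets past the filter 15 were lower, with a median of -0.21.

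**Figure D3:**
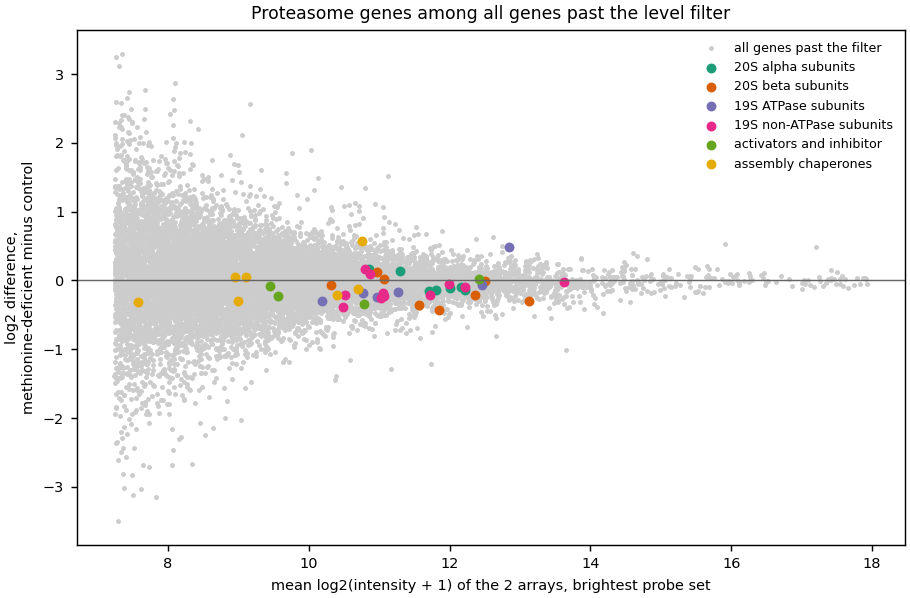
Log2 difference between the pools (methionine-deficient minus control) against the mean log2(intensity + 1) of both arrays, for all 11848 genes past the filter (grey) and the 43 proteasome genes coloured by subcomplex. The family lies at the bright, narrow end, with 32 genes in the brightest level bin, and spans -0.43 (Psmb5) to 0.57 (Psmd5).

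Activators other than the 19S particle open the gate of the core, and 3 of the 4 genes of activators and the inhibitor were lower, with a median of -0.15. Psme1, a subunit of the interferon-inducible 11S activator, had 1993 in control against 1565 in methionine-deficient RNA (log2 difference -0.35, probe-set spread 0.18). Its partner Psme2 was read only by a probe set shared with Psme2b, which is outside the family as chosen and had 1230.2 and 1045 (-0.24, probe-set spread 0.30). Psme3, the nuclear 11S activator, had 820.2 and 701 (-0.23, probe-set spread 0.30), and its dim second probe set gave 0.20. Psme4, the large activator PA200, had 5427 and 5503 (0.02), and its other 2 bright probe sets gave -0.13 and 0.06. Psmf1, an inhibitor that binds the core, had 715 and 677 (-0.08, probe-set spread 0.30), with 3 of its 4 probe sets lower.

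The assembly chaperones held the largest higher value of the family. Psmd5, which helps to build the 19S base and is not part of the finished particle, had 1425 in control against 2119 in methionine-deficient RNA (log2 difference 0.57, probe-set spread 0.18), a 1.49-fold difference read through a single probe set. The other base chaperones were close in both pools or less certain. Psmd9 had 540.2 and 560.1 (0.05, probe-set spread 0.46) and a second probe set at 0.33, and Psmd10 had 562 and 458 (-0.30, probe-set spread 0.46). The chaperones of the 20S core, which pair as Psmg1 with Psmg2 and Psmg3 with Psmg4, had a median of -0.17 with 3 of 4 lower. Psmg1 had 1728 and 1589 (-0.12), and Psmg2 had 1448 and 1251 (-0.21), with a second probe set at -0.52 and a dim one at 0.73. Psmg3 had 487 and 505 (0.05, probe-set spread 0.46), and Psmg4 had -0.31 beside a spread of 0.78. As 7 genes the chaperones had a median of -0.12, with 4 lower and 3 higher, and over their 10 probe sets past the filter 5 were lower.

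Genes that work with the proteasome but carry other symbols showed no common direction. In a list of 29 genes of proteasome cofactors, regulators and ubiquitin supply, 20 were measured, 10 lower and 10 higher, with a median of 0.02. Pomp, the maturation factor that the core needs for its assembly, had 2036 in control against 1489 in methionine-deficient RNA (log2 difference -0.45, probe-set spread 0.18). Usp14, a deubiquitinating enzyme bound to the 19S particle, had 1147 and 799 (-0.52, probe-set spread 0.30), although its 4 probe sets ranged from -0.56 to 0.32. Ube3c, a ubiquitin ligase at the proteasome, was lower in all 3 of its probe sets, with 643 and 505 (-0.35, probe-set spread 0.46) in the brightest. Nploc4, a cofactor that brings ubiquitinated proteins to the ATPase Vcp, had 821 and 662 (-0.31, probe-set spread 0.30), and Uba6, a ubiquitin-activating enzyme, had 524 and 699 (0.42, probe-set spread 0.46). The 3 probe sets of Uba6 past the filter ranged from -0.16 to 0.47. Nfe2l1, the transcription factor that raises proteasome genes when degradation is limiting, had 1424 and 1255 (-0.18), and its relative Nfe2l2 had 1079 and 1333 (0.31), each beside a spread of 0.30. Adrm1, a ubiquitin receptor of the 19S particle, was not analysed here.

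Of 15 genes of antigen presentation, a list that shares the inducible subunits and Psme1 with the family, 10 were past the filter. Of these 7 were lower, Psmb10 and Psme1 among them, and 3 higher, with a median of -0.23. Over all genes past the filter 50.0% were lower. Probe sets past the filter disagreed for H2-D1, with log2 differences from -0.28 to 1.43, and for H2-K1, from -0.10 to 1.35. Tap1, which carries proteasome products into the endoplasmic reticulum, had 399 in control against 155 in methionine-deficient RNA (log2 difference -1.36, probe-set spread 0.61) in its only probe set past the filter. Its 3 probe sets below the filter disagreed, with 29.2 and 230.5, with 4.68 and 167, and with 364 and 5.90, so Tap1 has no settled direction. Irf1, an interferon-induced transcription factor, had 761 and 1006 (0.40, probe-set spread 0.30). Leukocyte markers were lower for 6 of 9 genes, their median was -0.13, with differences from -0.58 to 0.23 and a summed intensity of 6424 in control against 5985 in methionine-deficient RNA. Ptprc, the common leukocyte antigen, had 685 and 457 (-0.58, probe-set spread 0.46). Its other probe set, below the filter, had 23.7 and 170. Probe sets past the filter disagreed for Coro1a, from -1.15 to 0.08, Lcp1, from -0.87 to 0.23, and Laptm5, from -0.18 to 0.49. Cd3e of T cells lay below the filter. The part of leukocytes in the values of Psmb10, Psme1 and Tap1 was not tested, and in RNA of whole pancreas fewer cells of a type and less RNA per cell cannot be told apart.

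The tissue label was checked against markers. The 7 acinar enzyme genes measured had intensities of at least 139181 and differences from -0.08 to 0.04, and the 4 islet hormone genes had a median of 0.02. Among the latter, Gcg was higher, at 21772 in control against 28591 in methionine-deficient RNA (0.39, probe-set spread 0.18). Ins2, Sst and the brightest probe set of Iapp were within that spread. Iapp ranged from 0.04 to 0.38 over its 4 probe sets past the filter. The 3 duct markers past the filter were all higher, with a median of 0.62, at low intensities of 221 to 972. Krt19 was within its spread of 0.30, and Krt7 (0.74) and Sox9 (0.62) were past theirs of 0.61. Below the filter, Cftr had 129 in control against 46.2 in methionine-deficient RNA, with 4.28 and 21.6 in a dimmer probe set. A further Sox9 probe set past the filter gave 0.23, and one below it had 144 and 9.73. The 3 adipocyte markers were all lower, with a median of -0.21 and differences from -1.59 to -0.20. The lowest adipocyte marker was Cidec, a lipid droplet gene, at 604 and 199.6 (probe-set spread 0.61). Fabp4 (-0.21, probe-set spread 0.18) ranged from -0.35 to 0.82 over its 3 probe sets past the filter. Of the endothelial markers 1 of 3 was lower (median 0.25), and the 2 probe sets of Cdh5 past the filter gave -0.50 and 0.48. Of the stromal markers 1 of 4 was lower (median 0.16). Col1a2 was higher, at 3222 and 4142 (0.36, probe-set spread 0.18), with 1.34 in its other probe set past the filter. Col1a1, Col3a1 and Dcn were within their spreads, and a Col1a1 probe set below the filter had 240 and 26.2. The muscle and testis lists each had 1 gene past the filter, both dim. Ckm had -0.65 and 0.87 in its 2 probe sets. Prm1 had 0.97, and its probe sets below the filter had 45.6 and 4.99, and 1.98 and 56.8. Beside the lower proteasome values, the intensity of the Actb control probe set at the 3' end over that at the 5' end, which tracks RNA integrity and labelling, was 1.46 in control and 1.76 in methionine-deficient RNA. For Gapdh this ratio was 0.973 and 1.11. Its part in the family's median was not tested.

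The medians of the family and of the 6 subcomplexes kept their sign under every scaling of the arrays that was tried. With each array centred on its median the family's median was -0.19 and that of all genes -0.05, so the gap between them was the same by construction. With quantile normalization the family had -0.12 and with loess on level -0.12. The medians of the alpha subunits and the assembly chaperones turned when genes were read through their further probe sets, to 0.23 and 0.33, and that of the alpha subunits also with the mean over probe sets, to 0.02. With that mean the chaperones' median was -0.00068, and with the filter at the 75th percentile it was -0.036.

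**Figure D4:**
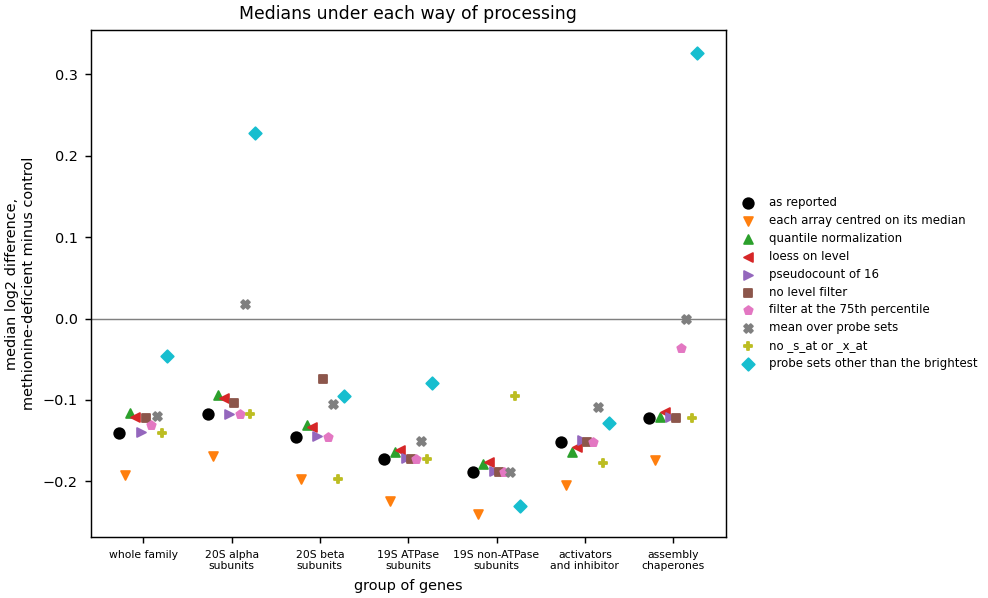
Median log2 difference (methionine-deficient minus control) of the family and of each subcomplex as reported (black circles) and under 9 other ways of processing (coloured symbols). All black circles lie between -0.19 and -0.12; the symbols above 0 belong to the alpha subunits and the assembly chaperones.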

How the data were processed

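RNA of 2 pancreas pools, extracted with Trizol and labelled with biotin through a 3' IVT kit per the labels' protocols, was measured on 1 Affymetrix array each. The values the authors deposited are intensities on a linear scale, 1 for each probe set. How they were summarised, background-corrected and scaled is not stated; both columns have a mean of 500.003 once 2% of probe sets are trimmed from either end. Gene names came from the platform annotation, and 34945 of 45101 probe sets had 1 symbol. Probe sets with several symbols (932), with none (9160) or serving as array controls (64) stayed out.

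Values were taken to log2(intensity + 1), which understates differences of dim probe sets, and no further scaling was applied. The level filter was the median level over probe sets other than array controls (intensity 150.3). A gene was read through its brightest probe set and counted at 1.5-fold. The probe-set spread is a robust SD (scaled median absolute deviation of differences between probe sets neighbouring in level within 1 gene and bin, divided by the square root of 2). Subcomplexes were assigned by symbol. Every member could be named; of the cofactor list those with the largest differences, up to 6, and 4 fixed genes were named, and up to 4 of the antigen presentation list. The members, lists and rules were chosen with earlier results of these data known. Depth in the sense of counts does not apply; the number of arrays limits the precision. The code for the spread and for the difference of a gene was run on simulated data with independent normal noise of the spreads found here. That run checks the code and cannot show whether errors of real probe sets behave so. Alternatives were other scalings, pseudocount, level filter, choice of probe sets and fold. Computations used Python 3.11.15, numpy 2.4.6, pandas 2.3.3 and statsmodels 0.14.6 (loess).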

Additional observations from a re-analysis of the deposited data

How the results depend on the processing

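A median was counted as moved if it shifted by more than the probe-set spread over the square root of its number of genes, and a count if it changed by over 1.5 times. The family's median moved to -0.19 with each array centred on its median and to -0.046 over the further probe sets (17 of 32 lower); under the other settings run it lay between -0.14 and -0.12. The alpha subunits turned to 0.018 with the mean over probe sets and to 0.23 over further probe sets, and the assembly chaperones to 0.33 over further probe sets. The median of the chaperones was also nearer 0 with the mean over probe sets (-0.00068) and with the filter at the 75th percentile (-0.036). The ATPase subunits moved to -0.079 over further probe sets (3 probe sets), the beta subunits to -0.074 without a level filter, and the non-ATPase subunits to -0.10 without probe sets marked as binding several transcripts. No gene passed 1.5-fold as reported, where 9.0% of all genes past the filter were lower and 10.4% higher by that size. At a log2 size of 0.32 in its place 4 were lower and 2 higher, where 19.5% and 21.5% of all genes were. At 1.5-fold 1 was lower and 1 higher without a level filter, and with the mean over probe sets 2 were lower, Psma3 and Psmd11. Shares of all genes under these settings are not given. Over further probe sets 3 were lower and 3 higher at 1.5-fold, where 900 and 990 of all 7774 such probe sets were. The cause of these shifts was not tested. Of the 43 genes, 36 kept their sign under the 3 scalings, the pseudocount of 16, the filters and the mean over probe sets, and 7 changed it in at least 1 of these. Added after seeing the data were counts over every probe set past the filter and over the brightest 2 level bins, which gave medians of -0.12 to -0.14. No paired analysis was possible because each group is 1 pool on 1 array. With dim probe sets, differences lie near background and set no direction.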

Other observations

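The widest differences of family probe sets past the filter came from dim ones and often lay far from the brighter probe set of the same gene. Psma3 had 428 in control against 67.0 in methionine-deficient RNA in its dim probe set (log2 difference -2.66), against -0.12 in its bright one. Psmd11 had 366 and 66.1 in its dimmest probe set past the filter (-2.45), against -0.21 in its brightest. These dim probe sets of Psma3 and Psmd11 exceeded the filter intensity of 150.3 in control only. Psmb1 had 2 dim probe sets of opposite sign, at 206 and 349 (0.75) and at 327 and 175 (-0.90), beside -0.22 in its bright one.

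Genes whose symbols start like those of the family but are not part of it were named after their values were seen. Psme3ip1, which encodes a protein that binds Psme3, had 904 in control against 1257 in methionine-deficient RNA (log2 difference 0.48, probe-set spread 0.30). The 2 probe sets of Psme3 that passed the filter differed in sign, at -0.23 and 0.20. Psmc3ip, a recombination factor of meiosis, had intensities of 9.75 to 20.5 in its 2 probe sets, below the filter.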
